A study of Canis lupus familiaris with 18 samples.

Results

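The small leucine-rich proteoglycans are a family of secreted matrix proteins, and 10 of its genes were followed here: DCN, BGN, ASPN, LUM, KERA, FMOD, PRELP, OMD, EPYC and OGN. A probe set belonged to the family when its only gene symbol in the platform annotation was one of these names, which gave 14 probe sets out of 42924 and 10 genes out of the 15115 with a symbol of their own. LUM, BGN, FMOD and PRELP had 2 probe sets each and the other genes had 1. Of the 14 probe sets, 12 were bright enough to be tested, and each of the 10 genes kept at least 1. The brighter probe set stands for its gene below unless the other is named.

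The values are log2 signals from 18 Affymetrix Canine_2 arrays of total RNA, with 3 arrays in each of 6 groups. The groups were right atrium (RA) and right ventricle (RV), each in early heart failure (HF), late HF and unpaced controls. Heart failure was produced in adult mongrel or beagle dogs by pacing the ventricle rapidly and continuously, for 2 weeks in early HF and 5 weeks in late HF by the sample titles, and for 2 to 3 and 5 to 6 weeks by the protocol text. The labels give no dog, breed or sex for an array and do not say whether controls carried a pacemaker.

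Small leucine-rich proteoglycans carry a horseshoe of leucine-rich repeats that binds collagen, and most also carry chondroitin, dermatan or keratan sulfate chains. They coat collagen fibrils and set their diameter and spacing, and several of them hold growth factors such as TGF-beta in the matrix or signal through cell surface receptors. In the heart they are made mainly by fibroblasts and other stromal cells, and the family is known for its part in scar formation and fibrosis. By sequence, decorin, biglycan and asporin form one class, while lumican, keratocan, fibromodulin, PRELP and osteomodulin make up another, and epiphycan and osteoglycin fall in a class of their own.

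One array went against its label. The library labelled RA late HF replicate 3 had log2 signals of 14.17 for MYL2 and 13.89 for MYL3, the ventricular myosin light chains, and of 11.65 for both MYL7 and MYL4, the atrial ones. RA controls averaged 7.31, 7.82, 14.04 and 14.01 for MYL2, MYL3, MYL7 and MYL4, and RV controls averaged 14.15, 14.06, 11.99 and 8.79. Results are therefore given from the fit over all 18 arrays and from a fit without this library. MYL2 was also higher in the other RA HF arrays than in RA controls. Without that library it was higher by 3.46 (SE 0.68, limma adjusted p = 0.0126) in early HF and by 3.48 (SE 0.76, adjusted p = 0.0336) in late HF. MYL3 read 9.04 to 10.86 in RA early HF and 8.81 or more in RA late HF, against 7.59 to 7.97 in RA controls. The part of MYL2 and MYL3 signal in the results below was not tested. RV late HF replicate 1 also stood apart, with a summed linear signal of 26727 over the 6 ventricular myocyte markers, against 50801 and 51602 in the other RV late HF arrays and 52029 to 55016 in RV controls. Array medians lay between 5.65 and 5.75, and a mean under 5.31, the limit of the signal filter, is near background. In bulk tissue, more cells of a type and more RNA per cell cannot be told apart, and 3 arrays per group limit the precision of every value.

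In the right atrium after 2 weeks of pacing, most of the family had higher signals than in controls. EPYC was 4.04-fold, KERA 2.10-fold, OMD 2.02-fold, BGN 1.92-fold, LUM 1.91-fold, ASPN 1.84-fold and OGN 1.56-fold the control level, while DCN, with bright signals in every group, was 1.25-fold. FMOD and PRELP differed by 0.00 and -0.10 on the log2 scale. In the right ventricle KERA, LUM, OMD and DCN averaged above controls by 0.97, 0.71, 0.52 and 0.45 in early HF and by 1.28, 1.15, 0.53 and 0.59 in late HF on the log2 scale, and EPYC averaged above controls in the late group only. The plot of signals by array shows the 10 genes in all groups.

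**Figure D1:**
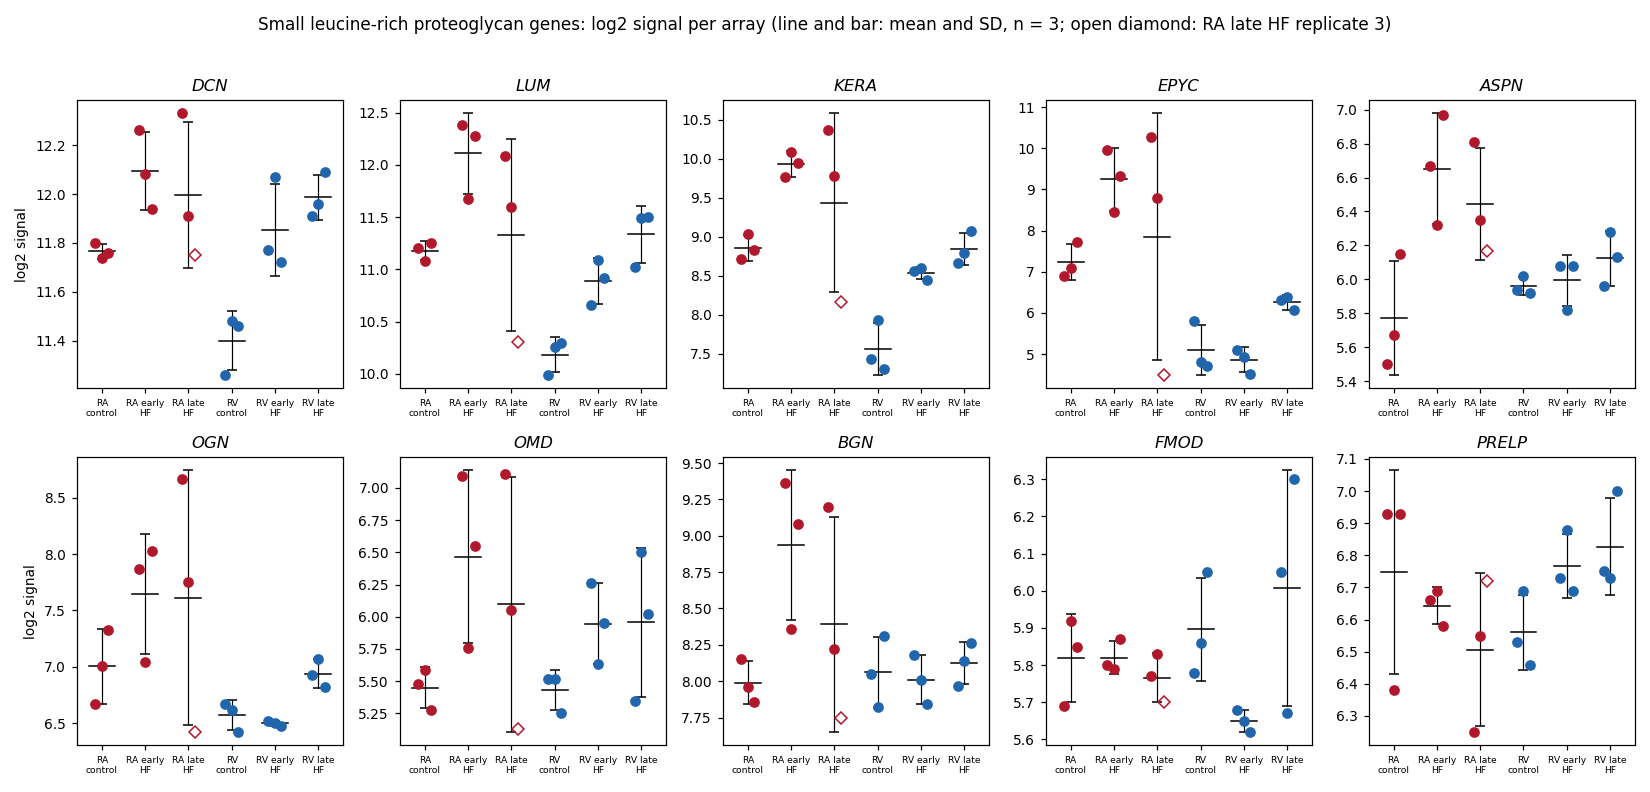
Log2 signal (vertical axis, own range for each gene) of the 10 small leucine-rich proteoglycan genes in each array, by chamber and stage (horizontal axis), with the group mean and SD, n = 3; RA arrays are red, RV arrays blue, and RA late HF replicate 3 is an open diamond. KERA arrays of RA early HF lie between 9.76 and 10.09, all above the RA controls at 8.71 to 9.04, and the diamond lies at 8.16.

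Decorin, the first class's best known member, binds collagen I and sequesters TGF-beta. DCN read 12.26, 12.08 and 11.94 in the RA early HF arrays, against 11.80, 11.74 and 11.76 in RA controls. In the RA late HF arrays it read 12.33, 11.91 and 11.75, the last being the library with ventricular markers. Each early HF array was above all RA controls, whereas that library lay among them. In RV, DCN read 11.77, 12.07 and 11.72 in early HF and 11.91, 11.96 and 12.09 in late HF, against 11.26, 11.48 and 11.46 in controls, so neither HF group overlapped the controls. The RV late HF difference of 0.59 (SE 0.14) had an unadjusted p of 0.000536 and a limma adjusted p = 0.386, or adjusted p = 0.0664 without RA late HF replicate 3. No DCN difference passed the adjusted threshold of 0.05 in either fit.

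Biglycan, decorin's closest relative, can act as a ligand of Toll-like receptors when it is released from the matrix. The brighter BGN probe set read 9.36, 8.36 and 9.08 in RA early HF, against 8.15, 7.96 and 7.86 in RA controls. RA late HF arrays read 9.20, 8.22 and 7.75. All early HF arrays lay above the controls, with replicate 2 the nearest to them, and in late HF the library with ventricular markers lay below every other RA array. The RA early HF difference was 0.94 (SE 0.29, limma adjusted p = 0.128 over all arrays), and it passed without RA late HF replicate 3 (SE 0.24, adjusted p = 0.0437). In RV, BGN stayed within 7.82 to 8.31 in all 9 arrays. The second BGN probe set read 5.96 to 6.45 over the 18 arrays and differed by 0.14 (SE 0.11, adjusted p = 0.643) in RA early HF, so the probe sets of this gene disagreed.

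Asporin lacks a sulfated sugar chain in its usual form, binds collagen at decorin's site and also binds TGF-beta. ASPN read 6.67, 6.32 and 6.97 in RA early HF, against 5.50, 5.67 and 6.15 in RA controls. In RA late HF it read 6.81, 6.35 and 6.17. Both HF groups lay above all RA controls, and the library with ventricular markers, at 6.17, was next to the highest control at 6.15. ASPN rose in RA early HF by 0.88 (SE 0.19, limma adjusted p = 0.0375), the one family call of the fit over all arrays, and by the same 0.88 without RA late HF replicate 3 (adjusted p = 0.0137). That call was lost without RA control replicate 1 (adjusted p = 0.16), RA control replicate 2 (0.151), RA early HF replicate 1 (0.0676) or RA early HF replicate 3 (0.151). In RV the 9 arrays read 5.82 to 6.28, with overlapping groups.

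Lumican regulates the assembly and spacing of collagen fibrils. LUM read 12.38, 11.67 and 12.28 in RA early HF, against 11.21, 11.08 and 11.25 in RA controls. RA late HF arrays read 12.09, 11.60 and 10.31. Every RA HF array lay above every RA control except the library with ventricular markers, which lay below all of them. The RA early HF difference of 0.93 had an SE of 0.31 and a limma adjusted p = 0.167 over all arrays, and an SE of 0.19 and adjusted p = 0.0145 without that library. In RV, LUM read 10.66, 11.09 and 10.92 in early HF and 11.02, 11.49 and 11.50 in late HF, against 9.99, 10.26 and 10.30 in controls, with no overlap between either HF group and the controls. Its RV late HF difference was 1.15, a 2.22-fold change (SE 0.31, adjusted p = 0.418), and it passed without RA late HF replicate 3 (SE 0.19, adjusted p = 0.0264).

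The second LUM probe set gave differences of similar size. It was higher by 1.12 (SE 0.36) in RA early HF and by 1.24 (SE 0.36) in RV late HF over all arrays. When RA late HF replicate 3 was left out, these had limma adjusted p = 0.0106 and 0.0287, and the RA late HF difference of 1.07 (SE 0.24) on this probe set also passed (adjusted p = 0.0366). The same late difference on the brighter probe set was 0.67 (SE 0.21, adjusted p = 0.104).

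Keratocan is a keratan sulfate proteoglycan best known from the cornea, where it keeps collagen fibrils evenly spaced. KERA read 9.76, 10.09 and 9.95 in RA early HF, against 8.71, 9.04 and 8.83 in RA controls. It read 10.37, 9.78 and 8.16 in RA late HF, where the last array, the one with ventricular markers, was again below all RA controls. In RV, KERA read 8.56, 8.60 and 8.45 in early HF and 8.67, 8.79 and 9.07 in late HF, against 7.44, 7.94 and 7.31 in controls. The stages formed 3 separate ranges in RV, with the controls lowest and the late HF arrays highest.

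KERA was the one family gene called in all 4 comparisons of HF with controls once RA late HF replicate 3 was left out. It rose by 1.07 (SE 0.18, limma adjusted p = 0.00495) in RA early HF, by 1.21 (SE 0.20, adjusted p = 0.0142) in RA late HF, by 0.97 (SE 0.18, adjusted p = 0.0221) in RV early HF and by 1.28 (SE 0.18, adjusted p = 0.0117) in RV late HF. These comparisons share controls within a chamber and are not independent. Over all arrays the same differences were 1.07, 0.58, 0.97 and 1.28 (SE 0.36 each), with adjusted p = 0.165, 0.552, 0.409 and 0.418. The order of group means, with that library left out, was RA late HF (10.08), RA early HF (9.93), RA control (8.86), RV late HF (8.84), RV early HF (8.54) and RV control (7.56). The arrays of RA control, at 8.71 to 9.04, and of RV late HF, at 8.67 to 9.07, covered nearly the same range.

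Fibromodulin binds collagen and modulates its crosslinking, and PRELP binds collagen and the heparan sulfate of basement membranes. FMOD read 5.79 to 5.87 in RA early HF, 5.70 to 5.83 in RA late HF and 5.69 to 5.92 in RA controls. In RV it read 5.62 to 5.68 in early HF and 5.67 to 6.30 in late HF, against 5.78 to 6.05 in controls, so the early HF arrays lay below the controls by 0.25 on average (SE 0.12, limma adjusted p = 0.62). PRELP read 6.58 to 6.69 in RA early HF, 6.25 to 6.72 in RA late HF and 6.38 to 6.93 in RA controls. In RV, PRELP read 6.69 to 6.88 in early HF and 6.73 or more in late HF, against 6.46 to 6.69 in controls, and the late HF arrays did not overlap the controls. Neither gene passed the threshold in any comparison of either fit. Their second probe sets read 3.15 to 3.55 for FMOD and 4.40 to 4.95 for PRELP, under the signal filter in all 18 arrays, and were not tested.

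Osteomodulin is a keratan sulfate proteoglycan of mineralizing matrix that binds cells and collagen. OMD read 7.09, 5.76 and 6.55 in RA early HF, against 5.48, 5.59 and 5.28 in RA controls. RA late HF arrays read 7.11, 6.05 and 5.13. The arrays of each RA HF group were more than 1 log2 unit apart, and RA early HF replicate 2 lay only just above the highest control. The RA early HF difference was 1.02 (SE 0.40, limma adjusted p = 0.247), and adjusted p = 0.101 without RA late HF replicate 3. In RV, OMD read 6.26, 5.63 and 5.95 in early HF and 5.35, 6.50 and 6.02 in late HF, against 5.52, 5.52 and 5.25 in controls, with overlap only in late HF.

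Epiphycan is a dermatan sulfate proteoglycan described mainly in growth plate cartilage, and it had the widest range of the family. EPYC read 9.97, 8.45 and 9.32 in RA early HF, against 6.90, 7.08 and 7.72 in RA controls. RA late HF arrays read 10.27, 8.79 and 4.50. The first and second late HF arrays lay above all controls, and the library with ventricular markers lay below every other array of both chambers. In RV, EPYC read 5.11, 4.94 and 4.52 in early HF and 6.31, 6.39 and 6.06 in late HF, against 5.80, 4.80 and 4.70 in controls. The RV control mean of 5.10 and the RV early HF mean of 4.86 were under the filter limit, and the late HF arrays lay above both groups, with a mean 0.95 above that limit.

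That single library set the error of EPYC. Over all arrays the RA early HF difference of 2.01 had an SE of 0.91 and a limma adjusted p = 0.331, and without RA late HF replicate 3 the same difference had an SE of 0.39 and adjusted p = 0.012. The RA late HF difference was 0.62 (SE 0.91, adjusted p = 0.829) with it and 2.30, a 4.91-fold change (SE 0.44, adjusted p = 0.0209), without it. In RV late HF the difference of 1.15 did not pass in either fit (SE 0.91 and adjusted p = 0.712 over all arrays, SE 0.39 and adjusted p = 0.235 without the library).

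Osteoglycin, also called mimecan, is a small proteoglycan of bone, vessel wall and heart. OGN read 7.87, 7.04 and 8.03 in RA early HF, against 6.67, 7.01 and 7.33 in RA controls. RA late HF arrays read 8.67, 7.75 and 6.42. The groups overlapped in early HF through replicate 2, and in late HF only the library with ventricular markers lay outside this pattern, below all controls. Without that library OGN rose in RA late HF by 1.21, a 2.31-fold change (SE 0.27, limma adjusted p = 0.0355), against 0.61 (SE 0.38, adjusted p = 0.55) with it. In RV, OGN read 6.52, 6.50 and 6.47 in early HF and 6.93, 7.07 and 6.82 in late HF, against 6.67, 6.62 and 6.42 in controls, and the late HF arrays lay above those of both other RV groups.

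**Figure D2:**
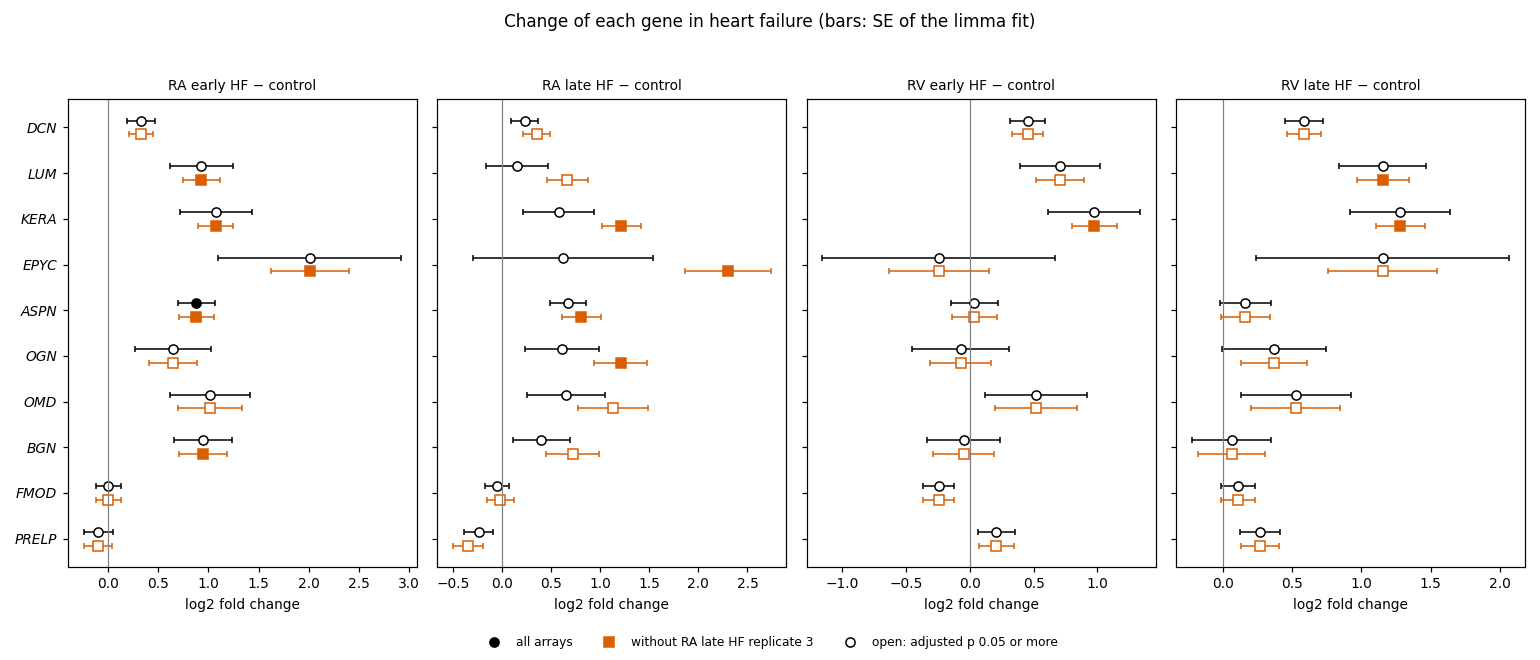
Log2 fold change of each gene (rows) against controls of the same chamber, in 4 panels, with bars for the SE of the limma fit; black circles are the fit over all arrays, orange squares the fit without RA late HF replicate 3, and filled symbols have an adjusted p under 0.05. ASPN in RA early HF, at 0.88, is the single filled circle, and KERA is filled in all 4 panels without that library.

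Counted over the family in RA early HF, 1 of 10 genes was called higher over all arrays, where 0.307% of the 25752 probe sets tested were called higher, and 0 were called lower, beside 0.505%. Without RA late HF replicate 3, LUM, KERA, ASPN, EPYC and BGN were called higher, which is 5 of 10 genes beside 1.63% of probe sets. The arrays of early HF and control did not overlap for 7 of 10 genes, all higher in HF, beside 8.7% of probe sets with higher and non-overlapping arrays. The median log2 fold change was 0.91 over the 10 genes and -0.02 over all probe sets tested. Of the 5 calls without that library, KERA held when any further array of the compared groups was left out, and BGN held in 1 of 6 such fits, the one without RA early HF replicate 2, with limma adjusted p of 0.087 to 0.145 in the others. The LUM call was lost without RA control replicate 2 (adjusted p = 0.0679) or RA early HF replicate 3 (0.0647), and the EPYC call without RA control replicate 1 (0.0559) or 2 (0.057). ASPN was lost there without RA control replicate 1 (0.0683), RA control replicate 2 (0.0658) or RA early HF replicate 3 (0.0647).

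Many of the family's low values in RA early HF came from the same array. RA early HF replicate 2 was the lowest array of its group for 7 of 10 genes, namely LUM, ASPN, EPYC, BGN, FMOD, OGN and OMD, and the highest for KERA and PRELP. The share of all probe sets for which it was the lowest was not counted, so this order is not particular to the family. The summed linear signal of the 14 fibroblast markers lay at 23189 to 29350 in RA early HF and at 17448 to 17839 in RA controls, and that of the 11 macrophage markers at 4084 to 7650 in RA early HF and 2506 to 2676 in RA controls. TCF21, a fibroblast factor, was under the filter. The 8 valve, tendon and cartilage markers named on the array, of which 4 passed the filter, had sums of 606 to 1348 in RA early HF and 553 to 584 in RA controls, while SOX9, TNMD, MATN4 and COL2A1 were under it. Atrial myocyte marker sums were 42409 to 43889 in RA early HF and 50203 to 52180 in RA controls, and smooth muscle and pericyte marker sums 6192 to 7507 in RA early HF and 4475 to 6004 in RA controls, each without overlap. The part of these cell types in the family's differences was not tested.

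In RA late HF, 0 of 10 genes were called over all arrays, where 0.0311% of probe sets were called higher and 0.0388% lower. There 1 family gene, ASPN, had an unadjusted p under 0.05 by limma, beside 3018 of 25752 probe sets. Without RA late HF replicate 3, which leaves 2 late HF arrays, KERA, ASPN, EPYC and OGN were called higher, 4 of 10 genes beside 1.21% of probe sets. Arrays did not overlap, with HF higher, for 1 gene over all arrays (ASPN, beside 6.16% of probe sets) and for 8 genes without that library (beside 15.8%). The family median was 0.49 over all arrays and 0.76 without the library, beside -0.01 and -0.03 over all probe sets. Leaving out RA late HF replicate 1 as well left a single late HF array, and ASPN, EPYC, KERA and OGN then had limma adjusted p between 0.495 and 0.914. Leaving out RA control replicate 1 in its place ended all 4 calls (adjusted p = 0.0565 for KERA to 0.146 for ASPN), RA control replicate 2 ended those of ASPN (0.104), EPYC (0.0555) and OGN (0.0719), and RA control replicate 3 that of OGN (0.0559).

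The library labelled RA late HF replicate 3 was below the RA control mean for 9 of 10 family genes. It was the lowest late HF array for every gene except PRELP, and below all other RA arrays for LUM, KERA, EPYC, BGN, OGN and OMD. Its value fell within the range of the 9 RV arrays for DCN, LUM, KERA, ASPN, FMOD, OGN and PRELP. EPYC, BGN and OMD lay below that range. The share of all probe sets was not counted for this range or for the other array counts in this paragraph. These counts are therefore not particular to the family. Against RV late HF means the library was lower for all genes except ASPN (-1.75 for EPYC, -1.03 for LUM, -0.68 for KERA). The remaining RA late HF arrays differed between themselves too. Replicate 1 was the highest of its group for 8 genes, with a median of 1.12 above the control means. The median of replicate 2 was 0.50. Fibroblast marker sums were 22771 to 25820 in those 2 arrays, 11757 in the library with ventricular markers and 17448 to 17839 in RA controls. Macrophage marker sums were 4690 to 6809 in the same 2 arrays, 2491 in that library and 2506 to 2676 in RA controls. Smooth muscle and pericyte marker sums were 6058 to 8131 in the 2 arrays, against 4475 to 6004 in RA controls. The part of these cell types in the late HF calls was not tested.

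**Figure D3:**
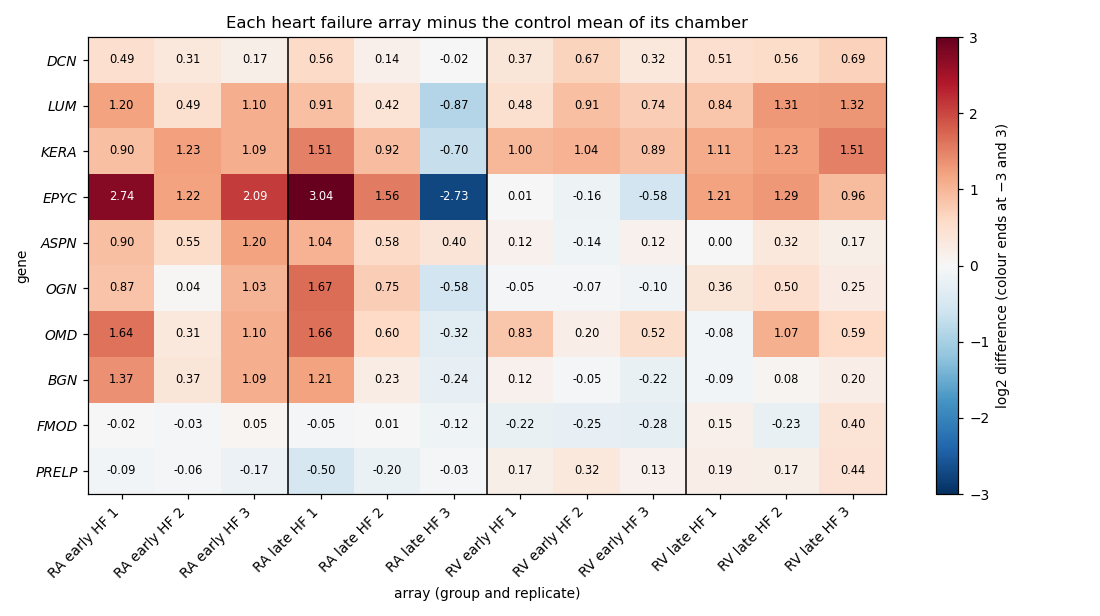
Log2 signal of each HF array (columns, by group and replicate) minus the control mean of its chamber, for each of the 10 genes (rows), with the value in each cell and colour from blue (lower) to red (higher). The column of RA late HF replicate 3 is below the control mean for 9 of 10 genes (the share of all probe sets was not counted), and EPYC reaches 3.04 in RA late HF replicate 1.

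In RV early HF, 0 of 10 genes were called over all arrays, where 0.0932% of probe sets were called higher. In that fit 3 family genes (DCN, LUM and KERA) had an unadjusted p under 0.05 by limma, beside 2184 of 25752 probe sets. KERA was called when RA late HF replicate 3 was left out, 1 of 10 genes beside 0.373% of probe sets. That call was lost when RV control replicate 1 or 3 or RV early HF replicate 1 or 3 was left out as well (limma adjusted p of 0.0759 to 0.0999). HF arrays lay above controls with no overlap for DCN, LUM, KERA and OMD, 4 of 10 genes beside 7.35% of probe sets. FMOD alone lay below with no overlap, 1 of 10 beside 8.46%. The family median was 0.12, beside -0.01 over all probe sets.

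In RV late HF no probe set was called over all arrays (0%), while 2372 of 25752 had an unadjusted p under 0.05 by limma, among them DCN, LUM and KERA. LUM and KERA were called higher without RA late HF replicate 3, 2 of 10 genes beside 0.0854% of probe sets. Leaving out further arrays on top, the LUM call held in 1 of 6 fits (without RV late HF replicate 1, with limma adjusted p of 0.0705 to 0.117 in the others) and the KERA call in 4 of 6. The KERA call was lost without RV control replicate 3 (adjusted p = 0.0636) or RV late HF replicate 3 (adjusted p = 0.0671). All 10 genes had positive differences, from 0.06 for BGN to 1.28 for KERA, beside 46.1% of probe sets. The family median was 0.45, beside -0.01 over all probe sets. BGN's second probe set differed by -0.07, and BGN and FMOD changed sign in some fits that left out an array. DCN, LUM, KERA, EPYC, OGN and PRELP had late HF arrays above all controls, 6 of 10 beside 9.04% of probe sets.

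Beside these RV differences, fibroblast marker sums were 14526 to 18755 in RV late HF and 11875 to 14161 in RV early HF, against 9331 to 10542 in RV controls. Macrophage marker sums were 3465 to 3809 in RV late HF, against 2234 to 2525 in RV controls. Atrial myocyte marker sums were 11764 to 12323 in RV late HF, against 6165 to 7499 in RV controls. Ventricular myocyte marker sums were 26727 to 51602 in RV late HF, all below the 52029 to 55016 of RV controls, and the lowest was that of replicate 1. With that array left out on top of RA late HF replicate 3, the RV late HF differences were 1.31 for LUM (limma adjusted p = 0.0205) and 1.37 for KERA (adjusted p = 0.0183). The 3' minus 5' signals of the control transcripts EF1A and GAPDH tend to fall as RNA is better preserved. EF1A's was 8.51 to 8.86 in RV late HF, against 8.01 to 8.28 in RV controls. GAPDH's was 1.28 to 1.47 in RV late HF, against 1.05 to 1.25 in RV controls. The part of these in the family's values was not tested.

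Late and early HF were compared directly in each chamber, and limma called 0 probe sets (0%) in either chamber or fit. Over all arrays 2068 probe sets in RA and 1433 in RV had an unadjusted p under 0.05. In RA the family differences lay between -1.39 for EPYC and -0.03 for OGN over all arrays, with LUM alone under an unadjusted p of 0.05 by limma (difference -0.78, SE 0.31). They lay, when RA late HF replicate 3 was left out, between -0.27 for LUM and 0.56 for OGN, and DCN, KERA, EPYC, OGN and OMD changed sign. In RV the late HF arrays lay above those of early HF with no overlap for KERA, EPYC and OGN, 3 of 10 genes beside 6.01% of probe sets. EPYC averaged 6.25 ± 0.17 in RV late HF and 4.86 ± 0.30 in RV early HF (SD, n = 3 each), a difference of 1.40 (SE 0.39, limma adjusted p = 0.353 without RA late HF replicate 3). FMOD differed by 0.36 (SE 0.12, adjusted p = 0.772 over all arrays).

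RA controls lay above RV controls with no overlap for DCN, LUM, KERA and EPYC, 4 of 10 genes beside 13% of probe sets. In the reference gene table of the dog, EPYC, KERA, LUM and DCN are neighbours in that order, which was looked up after the values were seen. EPYC averaged 7.23 ± 0.43 in RA controls and 5.10 ± 0.61 in RV controls (SD, n = 3 each), a difference of 2.13. The RV control mean was under the 5.31 limit of the signal filter, though RV control replicate 1 read 5.80. The RA control mean lay 1.93 above that limit. The limit is a cut on mean signal and gives no firm bound. The size of the difference (SE 0.91 over all arrays) is therefore uncertain. KERA averaged 8.86 ± 0.17 in RA controls and 7.56 ± 0.33 in RV controls, and LUM 11.18 ± 0.09 in RA controls and 10.18 ± 0.17 in RV controls. DCN differed by 0.37 (SE 0.14, limma adjusted p = 0.175).

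Over all arrays 0 of 10 genes were called between the control chambers, beside 1.69% of probe sets called higher in RA, and KERA was the nearest (1.30, SE 0.36, limma adjusted p = 0.0648). Without RA late HF replicate 3, KERA (SE 0.18, adjusted p = 0.000211), EPYC (SE 0.39, adjusted p = 0.003) and LUM (1.00, SE 0.19, adjusted p = 0.00362) were called, 3 of 10 beside 3.26%. All 3 calls held when any array of the compared groups was left out in turn on top of that library. The other 2 neighbouring sets were ASPN, OMD and OGN beside ECM2, and FMOD and PRELP beside OPTC. Their 5 family genes differed by -0.19 (ASPN) to 0.43 (OGN) between the chambers, so OGN differed by more than DCN (0.37). BGN had no family gene beside it and differed by -0.07. EF1A's 3' minus 5' signal was 9.28 to 9.58 in RA controls and 8.01 to 8.28 in RV controls. That of GAPDH overlapped, at 1.15 to 1.61 in RA controls and 1.05 to 1.25 in RV controls. Fibroblast marker sums were 17448 to 17839 in RA controls and 9331 to 10542 in RV controls. The part of these, and of the position of the genes, in the chamber difference was not tested.

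The HF effects of the chambers were then compared with each other by an interaction contrast, which asks whether the RA change minus the RV change differs from 0. Of the 10 genes, 0 passed at either stage in either fit, beside 0.00388% of probe sets called in either direction for early HF and 0.00777% for late HF. With replicate number as a block, 0 probe sets were called by limma in either contrast. In early HF, 3 genes had the largest RA minus RV differences over all arrays: EPYC (2.26, SE 1.29, limma adjusted p = 0.986), BGN (0.99, SE 0.41, adjusted p = 0.831) and ASPN (0.85, SE 0.26, adjusted p = 0.702). Their SEs without RA late HF replicate 3 were 0.55, 0.34 and 0.25, with adjusted p = 0.255, 0.476 and 0.347. EPYC's RV part of this contrast rests on 2 means under the filter limit. KERA's early effects differed by 0.10 (SE 0.25), and DCN's by -0.13 (SE 0.17), in that fit. Calls of ASPN, EPYC and BGN in RA early HF, with none in RV early HF, are therefore not a difference that was shown between the chambers.

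**Figure D4:**
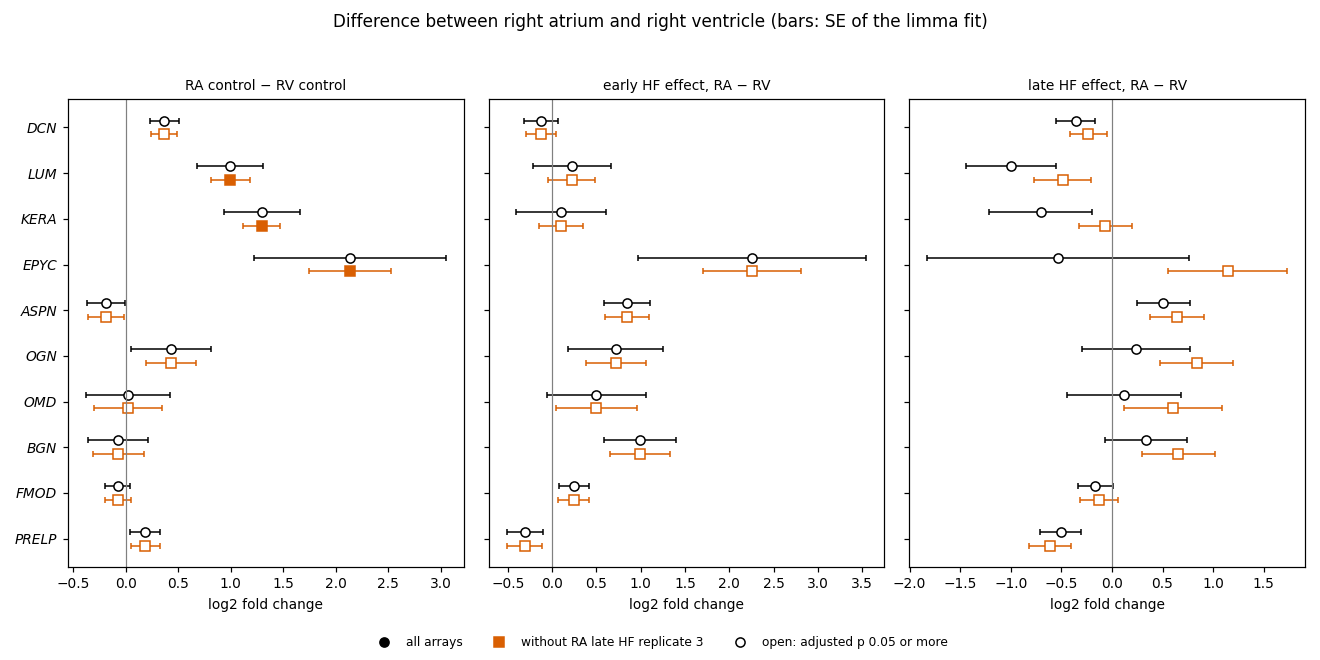
Log2 fold change between RA and RV for each gene (rows): controls on the left, and the RA effect of early and late HF minus the RV effect in the other panels, with bars for the SE of the limma fit, black circles for all arrays, orange squares without RA late HF replicate 3, and filled symbols for an adjusted p under 0.05. LUM (1.00), KERA (1.30) and EPYC (2.13) are filled squares in the control panel, and no symbol is filled in the other panels.

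Other genes of the pathway were read from lists. Among 10 fibrillar and fibril-associated collagens tested, the ligands of the family, 0 were called in RA early HF over all arrays, and 5 were called higher without RA late HF replicate 3. The shares of all probe sets called higher were 0.307% over all arrays and 1.63% without that library. COL1A1 rose by 2.34 (SE 0.54, limma adjusted p = 0.0267), COL1A2 by 1.74 (SE 0.35, adjusted p = 0.0151), COL3A1 by 1.58 (SE 0.34, adjusted p = 0.0203) and COL5A2 by 1.15 (SE 0.24, adjusted p = 0.0157) in that fit. Of 14 genes of collagen processing and crosslinking, PCOLCE, an enhancer of procollagen cleavage, was called there (0.63, SE 0.16, adjusted p = 0.0381). The collagens had a median of 1.23 and the processing genes one of 0.24 in RA early HF.

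Genes that build the sugar chains, and the partners and proteases of the family, had medians near that of all probe sets in HF. In RA early HF, 0 of 19 genes of chondroitin, dermatan and keratan sulfate synthesis were called in either fit, with a median of 0.03, and PAPSS1, which makes the sulfate donor, was nearest (0.45, SE 0.13, limma adjusted p = 0.0704 without RA late HF replicate 3). Growth factors and receptors bound by the family had 0 of 12 called and a median of 0.01, with CD14 nearest (0.36, SE 0.10, adjusted p = 0.065 in that fit). Proteases that cleave the family had 0 of 6 called and a median of -0.05. Other leucine-rich and matrix proteoglycans had 0 of 6 called and a median of 0.10, with SRGN, the proteoglycan of blood cell granules, nearest (1.02, SE 0.35, adjusted p = 0.138). The shares of all probe sets called higher in RA early HF were 0.307% over all arrays and 1.63% without RA late HF replicate 3. At such shares, 0 calls in lists of 6 to 19 genes do not set these genes apart. In RV late HF, 0 genes of these 6 lists were called in either fit, beside 0% and 0.0854% of probe sets called higher. The collagens had a median of 0.73 with positive differences for all 10, beside 46.1% of probe sets.

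**Figure D5:**
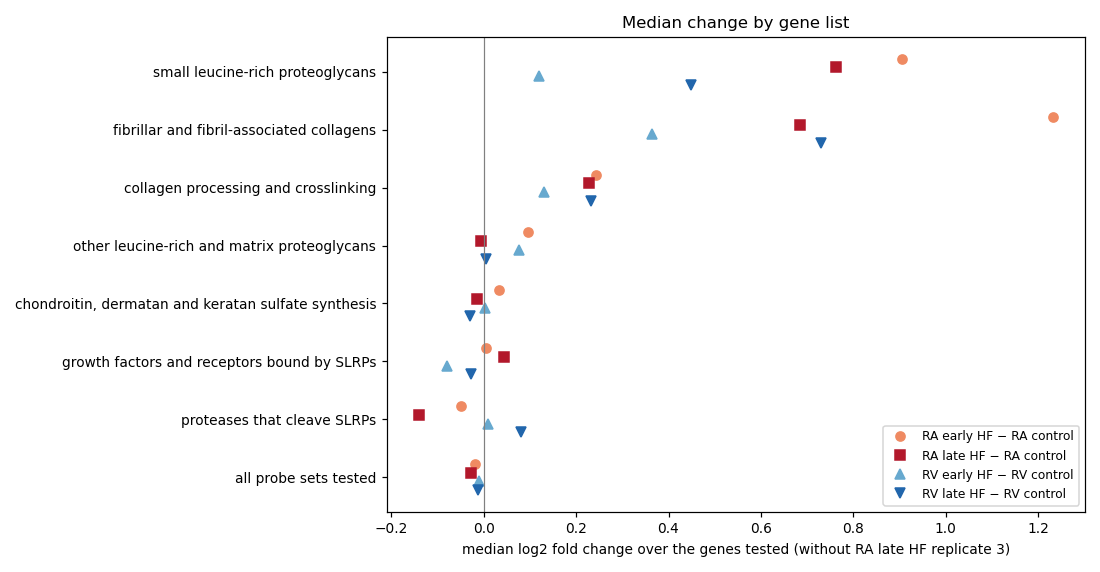
Median log2 fold change against controls of the same chamber (horizontal axis) over the genes tested of the family, of the 6 pathway lists and over all probe sets tested (rows), without RA late HF replicate 3; symbols stand for chamber and stage. In RA early HF the family median is 0.91 and that of the collagens 1.23, and the other 5 pathway lists lie between -0.05 and 0.24.

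Between the control chambers 1 collagen, 1 sugar chain gene and 1 receptor were called over all arrays, all higher in RA. In that fit 1.69% of all probe sets were called higher in RA. COL14A1, a fibril-associated collagen, was higher in RA by 0.97 (SE 0.23, limma adjusted p = 0.0317), and DSE, the epimerase that turns chondroitin into dermatan sulfate, by 1.67 (SE 0.33, adjusted p = 0.0102). EGFR, a receptor that decorin binds, was higher by 0.84 (SE 0.22, adjusted p = 0.05, just under the threshold). Without RA late HF replicate 3, calls higher in RA also included COL3A1 (1.35, SE 0.34), COL1A2 (1.29, SE 0.35), the decorin receptor LRP1 (0.50, SE 0.14), the proteases MMP2 (0.68, SE 0.16) and ADAMTS5 (0.45, SE 0.12), and ECM2 (0.48, SE 0.13), which lies beside ASPN and has similar leucine-rich repeats. Over all probe sets, 3.26% were called higher in RA in that fit.

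Marker lists of cell types were counted in the same way. In RA early HF without RA late HF replicate 3, calls were all higher and numbered 5 of 13 fibroblast markers, 5 of 11 macrophage markers, 2 of 6 ventricular myocyte markers and 1 of 7 smooth muscle and pericyte markers (RGS5, also called over all arrays). Calls numbered 0 of 7 atrial myocyte, 0 of 4 epicardial and mesothelial, 0 of 4 valve, tendon and cartilage, and 0 of 7 adipocyte markers. Over all probe sets, 1.63% were called higher in RA early HF in that fit. Ventricular myocyte marker sums, 10790 to 16994 in RA early HF, overlapped the 13824 to 15194 of RA controls. The fibroblast calls with the smallest p were MFAP5 (1.26, SE 0.27, limma adjusted p = 0.0189), DPT (0.87, SE 0.19, adjusted p = 0.0189), VIM (0.69, SE 0.15, adjusted p = 0.0193) and FBLN1 (1.12, SE 0.27, adjusted p = 0.032). In RA late HF in that fit, 4 of 11 macrophage markers were called higher, namely CTSS (2.27, SE 0.30, limma adjusted p = 0.00659), TYROBP (adjusted p = 0.0209), C1QC (0.0418) and AIF1 (0.05, just under the threshold). Calls higher in HF also numbered 1 of 6 ventricular myocyte markers (MYL2), 1 of 7 smooth muscle and pericyte markers (RGS5, 1.12, SE 0.21) and 0 of 13 fibroblast markers. Over all probe sets, 1.21% were called higher in RA late HF in that fit. In RV late HF in that fit, 1 of 13 fibroblast markers (VIM, 0.92, SE 0.15), 1 of 11 macrophage markers (CTSS, 1.59, SE 0.27) and 1 of 7 atrial myocyte markers (MYL7, 0.82, SE 0.15) were called higher. Over all probe sets, 0.0854% were called higher there.

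Across the 18 arrays, the genes outside the family with the most similar pattern were found by Pearson correlation over 10978 genes, as a description of arrays that share group differences and the library with ventricular markers. EPYC's nearest genes were SPARCL1 (r = 0.977), SPARC (0.966) and AKAP12 (0.964). LUM's were EFEMP1 (0.941), COL1A2 (0.939) and IGFBP7 (0.938), and KERA's were EFEMP1 (0.939), IL33 (0.934) and ANXA1 (0.932). BGN's nearest were S100A4 and TIMP1 (0.938 each) and COL5A1 (0.935), and ASPN's were POSTN (0.883), CCL2 (0.88) and THBS4 (0.878). DCN lay nearest to LXN (0.897), SVEP1 (0.868) and PTGR1 (0.858), OGN to CAPG (0.942), ARPC1B (0.94) and PPIC (0.939), and OMD to RIT1 (0.913), UFM1 (0.894) and GNPNAT1 (0.893). FMOD (highest r 0.775, PRDM15) and PRELP (0.85, OR2D3D) had lower Pearson values than the rest of the family. By rank (Spearman) correlation this order did not hold, with 0.853 for PRELP and OR2D3D against 0.75 for BGN and S100A4.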

How the data were processed

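Total RNA from 18 pieces of dog heart was hybridized to Affymetrix Canine_2 arrays, 1 array per sample. The deposited log2 signals, 1 per probe set, were used as they stand. The log2 scale was read from the values, and the authors' processing tool was MAS5, per the submitters' processing notes, with version, target and scaling not given in the sources used here. Of 43035 probe sets, 111 controls and then the 40% of lowest mean signal were left out, which left 25752 tested and 10988 genes. Gene symbols came from the platform annotation, and gene neighbours from a RefSeq gene table, whose assembly differs from the array's, so no coordinates are given. All 10 symbols are in that table. The platform's gene IDs of 2 genes (EPYC and OMD) are not.

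A linear model with 6 group means was run in limma 3.58.1 (R 4.3.3, trended prior, 12 residual degrees of freedom, or 11 without RA late HF replicate 3). Tests were two-sided, with Benjamini-Hochberg adjustment over all probe sets tested and a threshold of 0.05. The fit was tested on simulated data. Errors are SEs of the fit, with n = 3 arrays per group, unless given as SD. The labels call replicates biological but name no animal, so the tests reflect only how these arrays vary, which may be technical. At least 97.5% of values differed between any 2 arrays.

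Named genes are all family members, up to 4 called genes per list and comparison by smallest p (or the 1 of smallest p), the 3 genes most correlated with each member, and the 4 myosin light chains. The members, the 14 other lists (8 of them cell type markers) and the separate fit were chosen with earlier results of these data known. Same-numbered RA and RV arrays deviated together in controls (correlations of 0.356, 0.237 and 0.421) and early HF (0.172, 0.26 and 0.151). They did not in every pair of late HF (0.0525, -0.421 and 0.154). Between HF and control arrays of a chamber the correlations were -0.145 to 0.0928. Between late and early HF they were 0.365, 0.145 and -0.0321 in RA, and 0.0175, -0.325 and -0.0572 in RV. The labels give no pairing. Alternatives covered the filter, prior, arrays entering the fit, quantile normalization, array weights, probe set types, a replicate block and leaving out arrays. Figures used Python 3.11.15, pandas 2.3.3, numpy 2.4.6 and matplotlib 3.10.9.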

Additional observations from a re-analysis of the deposited data

How the results depend on the processing

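Over all arrays, limma called 209 probe sets in RA early HF, 18 in RA late HF, 27 in RV early HF, 0 in RV late HF, 0 in each comparison of late with early HF, 748 between the control chambers, 1 for the early and 2 for the late chamber contrast. These counts moved with the spread assumed. With only the compared groups in the fit they were 724, 0, 257 (RV late HF) and 2162 (control chambers), and 10 and 0 for the chamber contrasts, with 4 family genes called in RA early HF, 3 in RV late HF and 4 between control chambers. With array weights they were 1279, 2578, 384 and 229 in RA early, RA late, RV early and RV late HF, 2479 and 3 for late against early HF in RA and RV, 2605 between control chambers, and 13 and 18 for the contrasts, and the family calls were 2 in RA early, 4 in RA late and 3 in RV late HF and 4 between chambers. Quantile normalization gave 420 probe sets in RA early HF, 62 in RV early HF, 1 for the late contrast, and 1 family gene between chambers. An untrended prior gave 41 in RV early HF. Leaving out probe sets with _s_at or _x_at IDs gave 10 in RA late HF, 11 in RV early HF and 0 family genes in RA early HF, since the only ASPN probe set is of this kind. Omitting the signal filter changed no count by more than 1.5 times.

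With replicate number as a block, RA early HF had 147 probe sets and 0 family genes called, ASPN having a limma adjusted p = 0.0577, the control chambers had 963 and 0, and both chamber contrasts had 0 probe sets. ASPN was the only family call over all arrays without the block. For HF against controls the block matched same-numbered arrays of a chamber across stages. In RA early HF and controls such arrays did not deviate together (correlations of -0.0569, -0.00127 and -0.0138). In the fit without RA late HF replicate 3 a block, added after seeing the data, gave 5, 5, 1 and 3 family genes in RA early, RA late, RV early and RV late HF and 3 between control chambers: LUM came past the threshold in RA late HF (adjusted p = 0.0223) and RV early HF (0.0234), DCN in RV late HF (0.0436), and KERA left it in RV early HF (0.0537).

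Leaving out 1 array at a time gave 20 to 829 probe sets and 0 to 5 family genes called in RA early HF, 1 to 425 and 0 to 4 in RA late HF, 0 to 306 and 0 to 1 in RV early HF, 0 to 34 and 0 to 2 in RV late HF, and 251 to 1458 and 0 to 3 between control chambers. For late against early HF the ranges were 0 to 88 probe sets in RA and 0 to 72 in RV, and for the early and late chamber contrasts 0 to 12 and 0 to 5, with 0 family genes in each. RA late HF replicate 3 gave the upper family count in each of the first 5 comparisons. Leaving out a further array on top of it, chosen after seeing the data, gave 1 to 7 family genes in RA early HF, 0 to 8 in RA late HF, 0 to 1 in RV early HF, 0 to 2 in RV late HF, and 3 to 3 between control chambers.

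Family log2 fold changes kept their sign and their side of the threshold in 1281 values under the alternatives. They came past the threshold in 37, and left it in 5, all ASPN in RA early HF. The sign turned in 36, none of them a call. Turned values were 0.0098 for FMOD in RA late HF, 0.0064 for FMOD and 0.24 for OGN in RA late against early HF, and 0.25 for EPYC in the late contrast, all with array weights, and -0.005 for BGN in RV late HF with the mean of its probe sets. With 1 array left out, RA late HF spanned -0.23 to 0.67 for LUM, -0.59 to 2.30 for EPYC and -0.005 to 0.72 for BGN. RV early HF spanned -0.44 to 0.11 for EPYC, -0.17 to 0.075 for BGN and -0.01 to 0.12 for ASPN, and RV late HF -0.057 to 0.19 for BGN and -0.037 to 0.28 for FMOD. RA late against early HF spanned -0.56 to 0.56 for OGN, -0.26 to 0.027 for DCN, -0.96 to 0.14 for KERA, -2.60 to 0.28 for EPYC and -0.88 to 0.11 for OMD, and RV late against early HF -0.26 to 0.31 for OMD and -0.027 to 0.12 for PRELP. Between control chambers OMD spanned -0.07 to 0.11 and BGN -0.19 to 0.055. The early contrast spanned -0.088 to 0.23 for KERA, and the late contrast -0.068 to 0.66 for BGN, -0.29 to 0.84 for OGN, -0.39 to 0.60 for OMD and -1.74 to 1.14 for EPYC. The cause of these changes was not tested beyond the arrays named.

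Most family calls rest on leaving out 1 library. The 2 remaining RA late HF arrays differ widely, and a fit that leaves 1 of them assumes that it varies like the other groups. Signals near the filter limit, such as EPYC in RV controls and RV early HF, limit differences there.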
